A study of Mus musculus with 20 samples.

Results

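Mice labelled as lacking the retinol receptor gene *Stra6* that received no dietary vitamin A were compared with WT mice on a vitamin A sufficient diet, the 2 ends of a study that varied genotype and diet. The comparison takes 10 of the 20 libraries of the study, 5 of each of these 2 groups, and covers all genes of the deposited table, of which 18807 of 24411 had enough reads to be tested. The VAS WT group held C57BL/6 mice with intact *Stra6*, kept for 12 weeks after weaning on a vitamin A sufficient (VAS) diet with 4 IU per g. The VAD Stra6-/- group held mice of the same strain labelled as *Stra6* knockouts, kept for the same time on a vitamin A deficient (VAD) diet with 0 IU per g. Both groups were weaned at about 28 days from dams on standard chow, and all had the anterior segment, muscle and neural retina taken off before RNA of the RPE and choroid, pooled from both eyecups of a mouse, was extracted. According to the methods the WT mice came from a commercial breeder and the knockouts were bred in house, so genotype, diet and colony differ together here and cannot be told apart in this comparison. The other 10 libraries, VAD WT and VAS Stra6-/-, are used only where stated.

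The RPE is a pigmented epithelium between the photoreceptors and the choroid. It takes up retinol from blood through STRA6, stores it as retinyl esters made by LRAT, turns the esters into 11-*cis*-retinol with RPE65, and oxidizes this to the 11-*cis*-retinal that rods and cones need. Retinoic acid, made from retinal by dehydrogenases, acts on nuclear receptors, and in vitamin A deficiency the mucosal epithelia of the eye surface are known to turn into keratinized ones.

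The libraries held 17130453 to 18708681 reads in VAS WT and 17589788 to 21878614 in VAD Stra6-/-, and all values below are gene counts that the authors divided by 1 size factor per library (normalized values). No pair of libraries within either group differed by as little as counting noise, since the chi-square per gene was 7.82 or more in VAS WT and 5.80 or more in VAD Stra6-/-. The targeted gene *Stra6* (chromosome 9 from 58063788 to 58153996 of GRCm38) stood at 2661, 2742, 2414, 2449 and 2689 in VAS WT and at 2126, 1973, 2116, 2393 and 2208 in the libraries labelled VAD Stra6-/-. The groups did not overlap, but the log2 fold change was -0.26 (standard error 0.17, adjusted p = 0.224, limma, with the spread taken over all 20 libraries). It passed when the 10 libraries alone were fitted (adjusted p = 0.00267, limma), while the VAS Stra6-/- libraries held 564 to 694. The normalized level of *Stra6* thus goes against the label of these 5 libraries, and a count per gene does not show which exons the reads came from. Relative to the mean log2 value of 20 genes that mark the RPE, described below, *Stra6* was lower, at -1.42 against 0.81 in VAS WT. Whether the label is right was not tested. These 5 libraries are called the libraries labelled VAD Stra6-/- for this reason, and every direction below rests on that label. Each of them also held *Xist*, the RNA of the inactive X chromosome of females, at 3570 to 4280, together with the Y-linked *Ddx3y* at 741 to 970. In VAS WT *Xist* was 7.69 to 38.4 and *Ddx3y* 981 to 1193. *Xist* is known from female cells and *Ddx3y* from male ones, and the methods describe the 2 eyecups of 1 mouse as a sample.

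The tissue label was checked against marker genes. *Rpe65* and *Rlbp1* were present in all 10 libraries. The VAS WT libraries also held large amounts of keratins of the eye surface, which neither RPE nor choroid is known to make. The 25 listed surface epithelium genes summed to 581372 to 648267 in VAS WT, 3.48 to 3.78% of all normalized values, against 31673 to 40211 (0.179 to 0.217%) in the libraries labelled VAD Stra6-/-. The 7 listed cornea genes took 1.98 to 2.52% and 0.111 to 0.136%. No member of either list was at 0 in all libraries of a group. The share of these transcripts differed between the groups in the same direction in all 10 libraries, and its part in the differences below was not tested, apart from the ratios to reference genes.

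**Figure D1:**
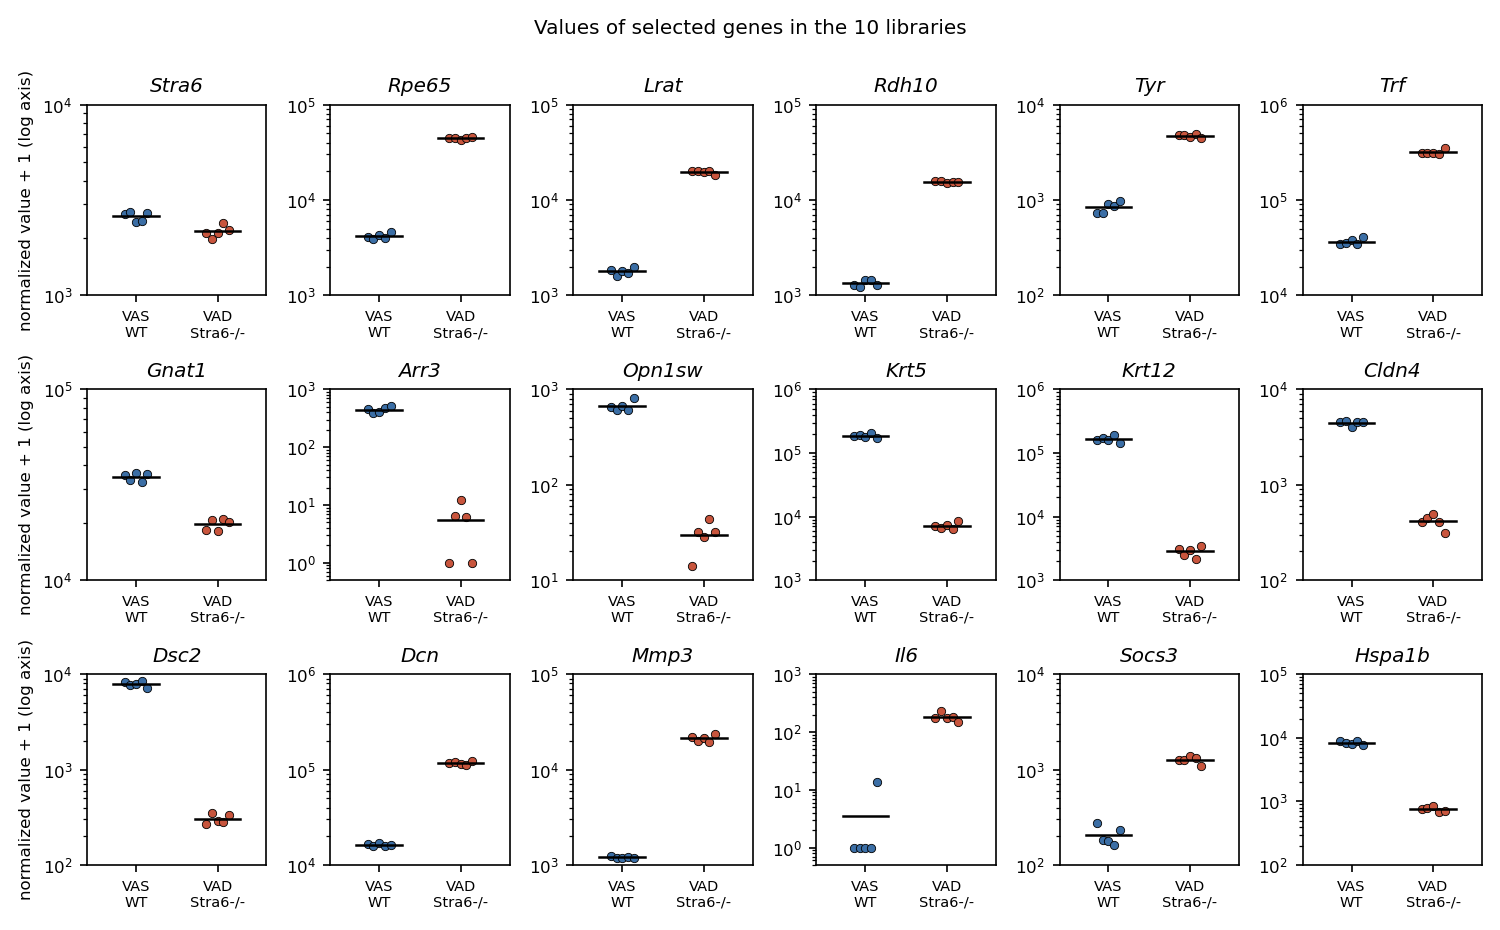
Normalized values plus 1 (vertical axes, logarithmic, each with its own range) of 18 genes in the 5 VAS WT libraries (blue) and the 5 libraries labelled VAD Stra6-/- (red), 1 point per library, with a bar at the group mean. The points of the 2 groups do not overlap in any panel, *Stra6* shows the smallest distance, and *Rpe65* lies at 3907 to 4595 in VAS WT and at 42395 to 45414 in the other group.

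Most genes tested differed between the 2 groups (52.7%). Of 18807 genes, 4756 (25.3%) were higher and 5157 (27.4%) lower in the libraries labelled VAD Stra6-/- at an adjusted p under 0.05 (limma). With a log2 fold change beyond 2 as well, 428 genes (2.28%) were higher and 1210 (6.43%) lower, so that large falls outnumbered large rises. The median over all genes was -0.05 on the log2 scale, and 90% of genes lay between -2.36 and 1.5. For 8278 of the 9913 genes called, the 5 values of one group lay wholly above the 5 of the other.

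The 12 largest falls among genes of at least 10 CPM included 5 members of the surface epithelium and secretion lists (*Slurp1*, *Lypd2*, *Ltf*, *Olfm4* and *Clca3b*) and 1 of the cone list. *Syt8*, a synaptotagmin (chromosome 7 from 142434850 to 142440396), was 626, 679, 693, 893 and 597 in VAS WT and 0, 0.902, 12.3, 4.39 and 7.61 in the libraries labelled VAD Stra6-/- (log2 fold change -7.39, standard error 0.57, adjusted p = 5.4e-10, limma). The secreted Ly6 protein *Slurp1*, an abundant product of the corneal epithelium (chromosome 15 from 74724318 to 74728034), was 7526, 8077, 6925, 9231 and 6646 against 85.6, 90.2, 81.9, 89.5 and 81.2, a mean 89.6-fold lower. Its neighbour *Lypd2* was 85.4-fold lower, at 13072 to 17123 against 135 to 199. In each case the highest library labelled VAD Stra6-/- lay far under the lowest of VAS WT.

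The epithelial lipoxygenase *Alox12e* (chromosome 11 from 70315610 to 70322628) was 4011 to 5030 in VAS WT and 45.6 to 64.3 in the libraries labelled VAD Stra6-/-, with log2 fold change -6.20 (standard error 0.18). Lactoferrin (*Ltf*), an iron-binding protein of tears, was 760 to 952 against 3.61 to 13.2. The chloride channel accessory genes *Clca3b* and *Clca4a*, the mucosal glycoprotein *Olfm4*, the whey acidic protein family gene *Wfdc18*, *Plekhs1* and the lipid hydrolase *Adtrp* completed the falls with log2 fold changes between -7.16 and -6.27. The last of the 12, cone arrestin (*Arr3*, chromosome X from 100605497 to 100618493), is a photoreceptor gene and is described with the cones.

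The 12 largest rises included 3 sclera and tendon genes, *Mmp3* of the matrix list and *Il6*. The cytokine *Il6* (chromosome 5 from 30013114 to 30019981) was 0, 0, 0, 0 and 12.5 in VAS WT and 175, 227, 172, 180 and 150 in the libraries labelled VAD Stra6-/- (log2 fold change 6.74, standard error 0.83, adjusted p = 5.92e-07, limma). In VAS WT 4 of 5 libraries had no read of it. The secreted pattern recognition protein *Ptx3* (chromosome 3 from 66219910 to 66225805) was 1.96, 22.1, 3.89, 9.76 and 15.2 against 561, 626, 493, 466 and 626, 52.4-fold higher.

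Stromelysin (*Mmp3*, chromosome 9 from 7445822 to 7455975), a metalloproteinase that cleaves proteoglycans, was 1250, 1183, 1170, 1220 and 1189 against 21829, 19829, 21326, 19249 and 23788, 17.6-fold higher. *Itgb8*, the integrin subunit that activates TGF-beta, was 26.3 to 48.6 against 424 to 985. The tendon and cartilage genes *Chad*, *Tnmd* and *Comp* were 13.3-fold, 12.5-fold and 11.8-fold higher. All 3 encode matrix or membrane proteins of dense connective tissue. *Xist* had the largest rise of all, and the retinol dehydrogenase *Rdh10*, the endolysosomal channel *Mcoln3*, the potassium channel subunit *Kcne4* and *Pcdhac2* were the others. *Pcdhac2* shares its last exons with the other genes of its cluster, so its count is uncertain, and it was 0 to 100 in VAS WT and 346 to 640 in the other group. Without replicate 5 of VAS WT, its one library at 0, the log2 fold change was 2.66 and no longer passed (adjusted p = 0.0877, limma).

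**Figure D2:**
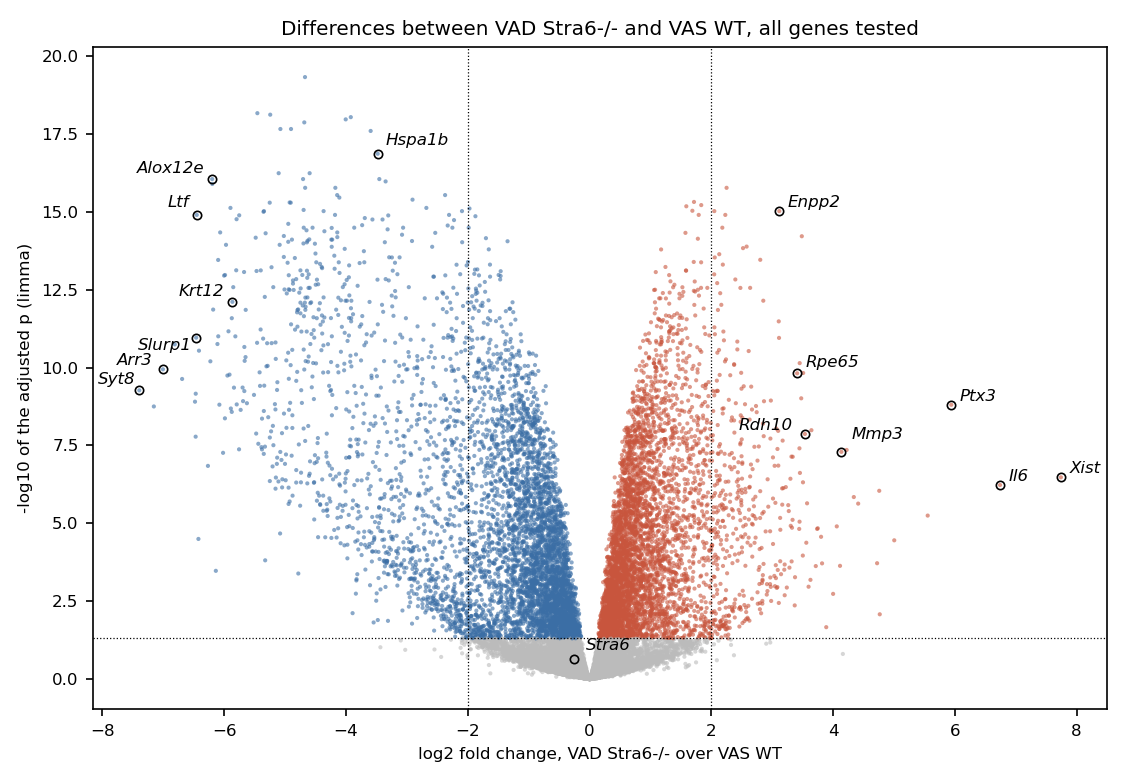
Log2 fold change (horizontal axis) against -log10 of the limma adjusted p (vertical axis) for all 18807 genes, with genes called higher in red, called lower in blue and the rest in grey, and dotted lines at an adjusted p of 0.05 and at log2 fold changes of -2 and 2. More points lie beyond -2 than beyond 2 (1210 against 428), and *Stra6* lies below the threshold.

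Genes of the visual cycle were several-fold higher in the libraries labelled VAD Stra6-/-. Of 13 listed genes of retinol uptake and the visual cycle, 11 were called higher and none lower, with a median log2 fold change of 1.8 against -0.05 over all genes. *Lrat*, which esterifies retinol (chromosome 3 from 82892579 to 82903973), was 1830, 1612, 1804, 1735 and 1975 in VAS WT and 19902, 19917, 19838, 20082 and 18109 in the other group, 10.9-fold higher (log2 fold change 3.45, standard error 0.23). The isomerohydrolase *Rpe65* (chromosome 3 from 159599175 to 159625321) was 4076, 3907, 4288, 4024 and 4595 against 45030, 44619, 42395, 44227 and 45414, 10.6-fold higher. For both genes the libraries of a group differed far less than the groups did.

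*Rdh10*, an oxidoreductase of retinol that also works in the visual cycle (chromosome 1 from 16105774 to 16133734), was 1270, 1217, 1440, 1458 and 1289 against 15803, 15662, 14935, 15516 and 15395, 11.6-fold higher. The 11-*cis*-retinol dehydrogenase *Rdh5* rose less (8958 to 10542 in VAS WT against 26386 to 31829, 2.81-fold). The 11-*cis*-retinoid carrier *Rlbp1* was 5.17-fold, the retinal G protein-coupled receptor *Rgr* 5.37-fold, peropsin (*Rrh*) 4.39-fold and transthyretin (*Ttr*) 3.48-fold higher. The retinal flippase of photoreceptor discs, *Abca4*, rose by 0.57 on the log2 scale. The interphotoreceptor retinoid-binding protein *Rbp3* (6379 to 7482 against 5127 to 6791) and the plasma retinol carrier *Rbp4* (30.2 to 71.4 against 38 to 65.8) were the 2 members that did not pass.

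Genes that mark the RPE and are mostly no retinoid enzymes were higher as well. Of 20 such genes, 4 of which also stand in the melanosome list, 18 were called higher and none lower (median 1.96), and their summed value was 114288 to 124286 in VAS WT and 600832 to 661316 in the libraries labelled VAD Stra6-/-. Transferrin (*Trf*), an iron carrier, was 8.64-fold higher and the lysophospholipase *Enpp2* 8.65-fold, whereas the transcription factors *Otx2* and *Mitf*, which maintain RPE fate, were 1.9-fold and 1.88-fold higher. The chloride channel *Best1* (11.7 to 44.6 against 18 to 29.6) and *Rdh8* did not pass. *Rdh8* is known as a photoreceptor enzyme and was kept in the list and in the reference mean below. In bulk RNA more cells of a type and more RNA per cell cannot be told apart. The log2 fold changes of the members were unequal, from -0.16 to 4.11 (*Itgb8*).

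To place single genes against the rest of the RPE signal, each was divided by the mean of the 20 RPE genes on the log2 scale and compared with an exact permutation test (two-sided, adjusted over 14 ratios). *Rdh10*, *Lrat* and *Rpe65* were higher relative to this reference by 1.57, 1.49 and 1.45, and *Rlbp1* by 0.41, in the libraries labelled VAD Stra6-/-. *Rdh5*, higher in normalized values, had a ratio difference of -0.47. That of *Stra6* was -2.22. Each of these 6 ratios had an exact p of 0.00794, the smallest that 5 against 5 allow, and an adjusted p of 0.00855, with 5 of 5 libraries of each group on opposite sides.

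**Figure D3:**
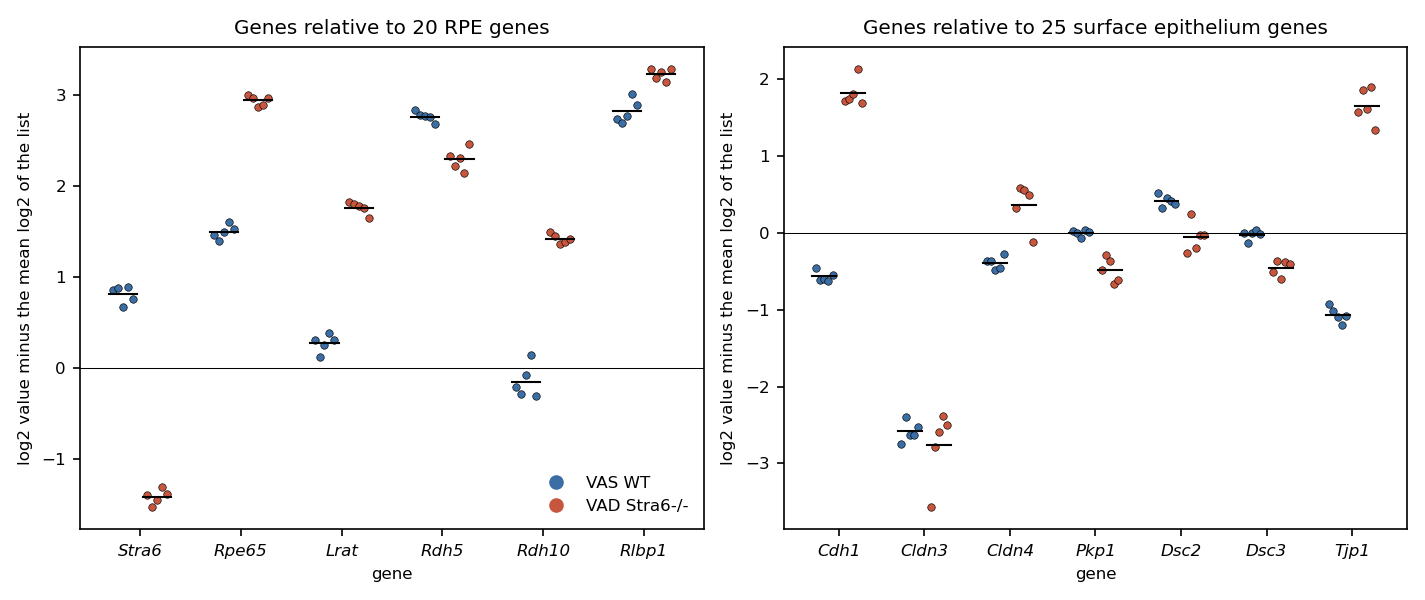
Log2 value of single genes minus the mean log2 value of 20 RPE genes (left) or of 25 surface epithelium genes (right), 1 point per library, blue for VAS WT and red for the libraries labelled VAD Stra6-/-, with a bar at the group mean. On the left *Rpe65*, *Lrat* and *Rdh10* shift up and *Stra6* and *Rdh5* down, and on the right *Cdh1* and *Tjp1* shift up by 2.39 and 2.72 while the points of *Cldn3* overlap.

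Pigment genes rose together. All 12 listed melanosome genes were called higher (median 1.73), led by tyrosinase (*Tyr*), the first enzyme of melanin synthesis, at 732, 727, 908, 861 and 965 in VAS WT and 4811, 4796, 4616, 4880 and 4493 in the libraries labelled VAD Stra6-/-. The anion channel regulator *Oca2* was 4.64-fold, the later pigment enzymes *Tyrp1* and *Dct* 3.64-fold and 3.65-fold and the fibril protein *Pmel* 2.88-fold higher, and the trafficking GTPase *Rab38* moved least (1.5-fold). Since these genes rose with *Rpe65* and *Rlbp1*, the 250 bases before their start sites were read for CATGTG, the E-box variant that MITF is known to bind in pigment genes, on either strand. It was present in 6 of the 7 melanosome genes that have an entry in the promoter table, in 6 of 16 RPE identity genes and in 3 of 10 visual cycle genes, against 13.8% of all 27025 genes in that table, 0 of 11 surface epithelium genes and 1 of 10 cone genes. TAATCC, the core that OTX2 and CRX are known to bind, was also read on both strands and was in 2 of 7 melanosome, 4 of 16 RPE identity, 4 of 10 visual cycle, 2 of 11 surface epithelium and 2 of 10 cone genes, against 7.21% of all. The melanosome, RPE identity and visual cycle lists share genes. Of their 30 distinct genes with an entry, 12 held CATGTG (40%) and 9 held TAATCC (30%). The 5 sequences below (RefSeq, GRCm38.p6, 5′ to 3′ on the gene's strand, ending at the base before the start site) show CATGTG, or its reverse complement CACATG, in capitals. All 5 are from genes that hold it. They are chr3:159598931-159599180 (plus strand) for *Rpe65*, chr7:79387028-79387277 (minus) for *Rlbp1*, chr7:87493513-87493762 (minus) for *Tyr*, chr4:80833963-80834212 (plus) for *Tyrp1* and chr14:118052247-118052496 (minus) for *Dct*.
Rpe65: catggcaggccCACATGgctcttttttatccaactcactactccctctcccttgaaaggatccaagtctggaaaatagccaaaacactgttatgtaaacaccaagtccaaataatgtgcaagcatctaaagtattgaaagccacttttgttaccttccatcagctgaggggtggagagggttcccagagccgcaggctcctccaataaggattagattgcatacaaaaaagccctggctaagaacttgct
Rlbp1: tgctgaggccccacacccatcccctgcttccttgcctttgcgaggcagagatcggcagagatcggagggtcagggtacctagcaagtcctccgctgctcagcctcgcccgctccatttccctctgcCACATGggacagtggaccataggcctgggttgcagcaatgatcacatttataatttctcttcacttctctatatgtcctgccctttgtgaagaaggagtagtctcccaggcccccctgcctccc
Tyr: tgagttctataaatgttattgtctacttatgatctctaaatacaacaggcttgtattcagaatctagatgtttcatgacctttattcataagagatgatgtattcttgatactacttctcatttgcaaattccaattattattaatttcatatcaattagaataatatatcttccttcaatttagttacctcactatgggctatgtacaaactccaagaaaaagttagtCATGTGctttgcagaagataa
Tyrp1: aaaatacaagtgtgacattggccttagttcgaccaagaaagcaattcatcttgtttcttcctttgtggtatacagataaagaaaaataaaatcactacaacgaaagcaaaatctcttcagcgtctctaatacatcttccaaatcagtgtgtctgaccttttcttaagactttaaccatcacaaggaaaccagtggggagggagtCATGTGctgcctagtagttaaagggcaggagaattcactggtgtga
Dct: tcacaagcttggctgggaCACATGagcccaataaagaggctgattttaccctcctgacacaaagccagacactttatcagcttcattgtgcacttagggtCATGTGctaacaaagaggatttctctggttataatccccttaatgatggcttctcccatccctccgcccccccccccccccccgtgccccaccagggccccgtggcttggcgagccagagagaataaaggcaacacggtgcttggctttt
The motif begins 21 bases before the start site in *Tyr* and 46 in *Tyrp1*, but 124 in *Rlbp1* and 239 in *Rpe65*, and *Dct* has it at 232 and 150. A match of letters is a description and not a bound site.

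The genes by which the RPE takes up shed outer segments moved less. Of 14 listed, 9 were called higher and 1 lower (median 0.86). The integrin subunit *Itgav*, which binds the outer segment, was 4.54-fold higher and the scavenger receptor *Cd36* 4.16-fold, the engulfment kinase *Mertk* was 2.08-fold and its ligand *Gas6* 1.98-fold higher. The integrin ligand *Mfge8* was 3999 to 4395 against 3871 to 4250. *Tulp1*, which photoreceptors express too, was the one lower (log2 fold change -1.08).

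Of 19 RPE transporter and pump genes 11 were called higher and 2 lower (median 0.97), beside 25.3% and 27.4% of all genes. The lactate transporter *Slc16a1* was 1483, 1378, 1699, 1402 and 1890 in VAS WT and 13959, 13345, 12384, 12454 and 13229 in the libraries labelled VAD Stra6-/-, 8.32-fold higher. The glucose transporter *Slc2a1* was 2.88-fold and the sodium pump subunit *Atp1b1* 3.63-fold higher. The anion exchanger *Slc26a7* had the largest rise of the list (29.2 to 93.2 against 440 to 826). The creatine transporter *Slc6a8* and the cotransporter *Slc12a2* were lower, with log2 fold changes of -0.56 and -0.18.

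Genes of retinoic acid metabolism split by enzyme. Of 23 listed, 4 were called higher and 10 lower (median -0.43, and -0.15 and -0.17 without replicate 2 or 4 of VAS WT). The shares over all genes were 25.3% and 27.4%. The alcohol dehydrogenase *Adh7*, which oxidizes retinol (chromosome 3 from 138217760 to 138233382), was 8876, 9641, 9214, 10074 and 8852 in VAS WT and 453, 417, 408, 429 and 369 in the libraries labelled VAD Stra6-/-, 22.5-fold lower. *Adh1* was 14-fold lower and the retinal dehydrogenase *Aldh1a3* 10.2-fold, whereas the retinal dehydrogenases *Aldh1a2* and *Aldh1a1* were 2.69-fold and 1.54-fold higher. The carotenoid oxygenase *Bco2* was 1.81-fold higher. *Adh7* and *Aldh1a3* are also known from surface epithelia, whose 25 listed markers had a median log2 fold change of -4.63, and the part of such tissue in these falls was not tested.

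Of the receptors, *Rarg* was 4.87-fold lower and *Rara*, *Rxra* and *Rxrb* had log2 fold changes of -0.71, -0.60 and -0.43. *Rarb*, a receptor gene that retinoic acid is known to induce, was 338, 351, 329, 331 and 430 in VAS WT and 504, 484, 576, 479 and 500 in the other group, higher by 0.52 (standard error 0.14, adjusted p = 0.00257, limma). The retinoic acid hydroxylase *Cyp26a1*, another induced gene, was 236, 205, 172, 196 and 203 against 270, 289, 266, 254 and 189, with overlapping groups (log2 fold change 0.32, standard error 0.55). The hydroxylase *Cyp26b1* was 1.89-fold and the inducible transglutaminase *Tgm2* 2.7-fold lower, and the retinal reductase *Dhrs3* was 3301 to 3626 against 2994 to 3529. *Cyp26b1* did not pass without replicate 1, 2 or 4 of VAS WT or replicate 2 or 5 of the other group (adjusted p 0.0501 to 0.0691, limma), and *Dhrs3* passed without replicate 5 of the latter (adjusted p = 0.0325). The known target genes did not share 1 direction.

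Cone genes were lower, but by very different amounts. Of 14 listed, 11 were called lower and none higher (median -1.73). *Arr3*, which quenches cone opsins, was 451, 389, 406, 470 and 512 in VAS WT and 0, 5.41, 11.3, 5.27 and 0 in the libraries labelled VAD Stra6-/-, 2 of which had no read. The short-wave opsin *Opn1sw* was 658, 611, 671, 612 and 804 against 13.1, 30.7, 27.6, 43 and 31.3, 23-fold lower. The medium-wave opsin *Opn1mw* was 41.8-fold and the inhibitory phosphodiesterase subunit *Pde6h* 59.4-fold lower, and the cone channel subunit *Cnga3* was 16.3 to 81.2 against 0 to 3.07, 3 reads in the whole second group.

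Other cone genes of the same cascade moved far less. Cone transducin (*Gnat2*) was 733, 571, 714, 596 and 755 against 331, 220, 268, 305 and 217, 2.51-fold lower, and its gamma subunit *Gngt2* 2.31-fold. The catalytic cone phosphodiesterase *Pde6c* overlapped between the groups (131 to 190 against 106 to 164, log2 fold change -0.31, standard error 0.31). *Opn1sw*, *Opn1mw*, *Arr3* and *Pde6h* thus had log2 fold changes from -7.01 to -4.56, and *Gnat2*, *Gngt2* and *Gnb3* from -1.82 to -1.22.

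Rod genes were lower by smaller amounts. Of 20 listed, 15 were called lower and 1 higher (median -0.77). Rod transducin (*Gnat1*) was 35395, 33489, 36663, 32754 and 35906 in VAS WT and 18375, 20661, 18020, 20924 and 20117 in the libraries labelled VAD Stra6-/-, 1.78-fold lower (log2 fold change -0.83, standard error 0.21). The guanylate cyclase activator *Guca1a*, shared with cones, fell most (3.25-fold). Rod arrestin (*Sag*) was 12062 to 14107 against 12559 to 14705 and the disc protein *Rom1* 7193 to 8763 against 6575 to 7536, neither called. The one higher was the exchanger *Slc24a1* (1.98-fold). Of 18 inner retina genes 4 were called higher and 7 lower (median -0.38), beside 25.3% and 27.4% of all genes. *Grm6*, the glutamate receptor of ON bipolar cells, was 3.95-fold lower. The 4 higher ones, *Rlbp1*, *Trpm1*, *Glul* and *Slc6a9*, include genes that the RPE or pigment cells are known to express too. The summed rod value was 189237 to 216106 against 128800 to 145715, so that rod transcripts were plentiful in both groups.

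The lists of the eye surface had the lowest medians of all. Of 25 surface epithelium genes 23 were called lower, each beyond a log2 fold change of 2, and 1 higher (median -4.63). Keratin 5 (*Krt5*, chromosome 15 from 101707070 to 101712898), a keratin of basal cells, was 184697, 192482, 180661, 205231 and 169775 in VAS WT and 7130, 6738, 7377, 6495 and 8438 in the libraries labelled VAD Stra6-/-, 25.8-fold lower. The epithelial master regulator *Trp63* was 24.1-fold, the splicing factor *Esrp1* 36.7-fold and the mucosal keratins *Krt13* and *Krt4* 17.6-fold and 15.9-fold lower. The connexin *Gjb6* was the one higher and *Gjb2* overlapped.

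All 7 cornea genes were called lower (median -4.48). The cornea keratin *Krt12* (chromosome 11 from 99415666 to 99422259) was 157795, 172162, 157376, 194875 and 142834 against 3140, 2472, 3030, 2179 and 3433, 57.9-fold lower, the water channel *Aqp5* 49.2-fold and the corneal aldehyde dehydrogenase *Aldh3a1* 22.3-fold. The stromal keratocyte gene *Kera* moved least (1.66-fold) and did not pass without replicate 1, 3 or 4 of VAS WT or replicate 1, 2 or 5 of the other group (adjusted p 0.0518 to 0.0588, limma). Of 13 genes of tear and mucosal secretion 10 were called lower and 1 higher (median -5.05), among them the membrane mucin *Muc4* (73.1-fold) and the antibody transporter *Pigr*, at 204 to 251 against 1.01 to 16.1. Lysozyme 2 (*Lyz2*), which macrophages also make, was 3.25-fold higher.

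Junction genes fell with these markers, but not all of them. Of 24 tight junction genes 17 were called lower and 3 higher (median -1.33). Claudin 7 (*Cldn7*) was 28.3-fold, *Cldn3* 20.8-fold and *Cldn4* 10.9-fold lower, the last at 4510, 4711, 4078, 4566 and 4518 in VAS WT and 402, 446, 488, 408 and 314 in the libraries labelled VAD Stra6-/-. The scaffold *Tjp1* (ZO-1) was 3064, 3007, 2669, 2753 and 2585 against 962, 1085, 1016, 1083 and 859, 2.81-fold lower. The 3 that rose were *Cldn1* (5.58-fold), *Cldn2* (3.39-fold) and *Jam3* (4.29-fold), and *Cldn19*, the main claudin known in human RPE, was 287 to 315 against 248 to 290.

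Desmosome genes were lower in 11 of 13 cases (median -4.08), with the desmosomal cadherin *Dsc2* at 8356, 7623, 7860, 8390 and 7085 in VAS WT and 268, 354, 290, 284 and 334 in the libraries labelled VAD Stra6-/-, 25.7-fold lower. *Dsc3* was 25.1-fold and the plaque protein *Pkp1* 25.9-fold lower. *Pkp2* and *Pkp4*, plakophilins of wider expression, were higher (1.93-fold and 1.44-fold). Of 9 hemidesmosome genes 8 were lower (median -2.53), with collagen XVII (*Col17a1*) 43.6-fold lower, and *Cd151* was higher by 0.31 on the log2 scale. The 12 adherens junction genes had 4 higher and 5 lower (median 0.15, or 0.085 without replicate 5 of VAS WT), beside 25.3% and 27.4% of all genes. E-cadherin (*Cdh1*) was 4253, 3994, 3775, 4069 and 3742 against 1066, 997, 1166, 1275 and 1101, 3.54-fold lower, whereas P-cadherin (*Cdh3*), which the RPE expresses, was 3.73-fold higher and *Cdh2* 1.91-fold.

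Relative to the mean log2 value of the 25 surface epithelium genes, *Cdh1*, *Tjp1* and *Cldn4* were higher in the libraries labelled VAD Stra6-/- by 2.39, 2.72 and 0.76 (exact permutation test, two-sided p = 0.00794 and adjusted p = 0.00855 for each). The differences of *Pkp1*, *Dsc2* and *Dsc3* were -0.48, -0.47 and -0.43 (the same exact p and adjusted p). Against the median of the 25 genes in place of the mean, these 3 turned to 0.21, 0.23 and 0.27 higher, with adjusted p of 0.137, 0.159 and 0.0303. The ratio of *Cldn3* did not pass (-0.18, exact permutation p = 0.579), nor did it against the median (0.52, adjusted p = 0.0833). *Cdh1*, *Tjp1* and *Cldn4* thus fell less than the epithelial markers by the mean and by the median. Whether *Pkp1*, *Dsc2* and *Dsc3* fell more or less depended on the reference, and so did the sign for *Cldn3*.

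**Figure D4:**
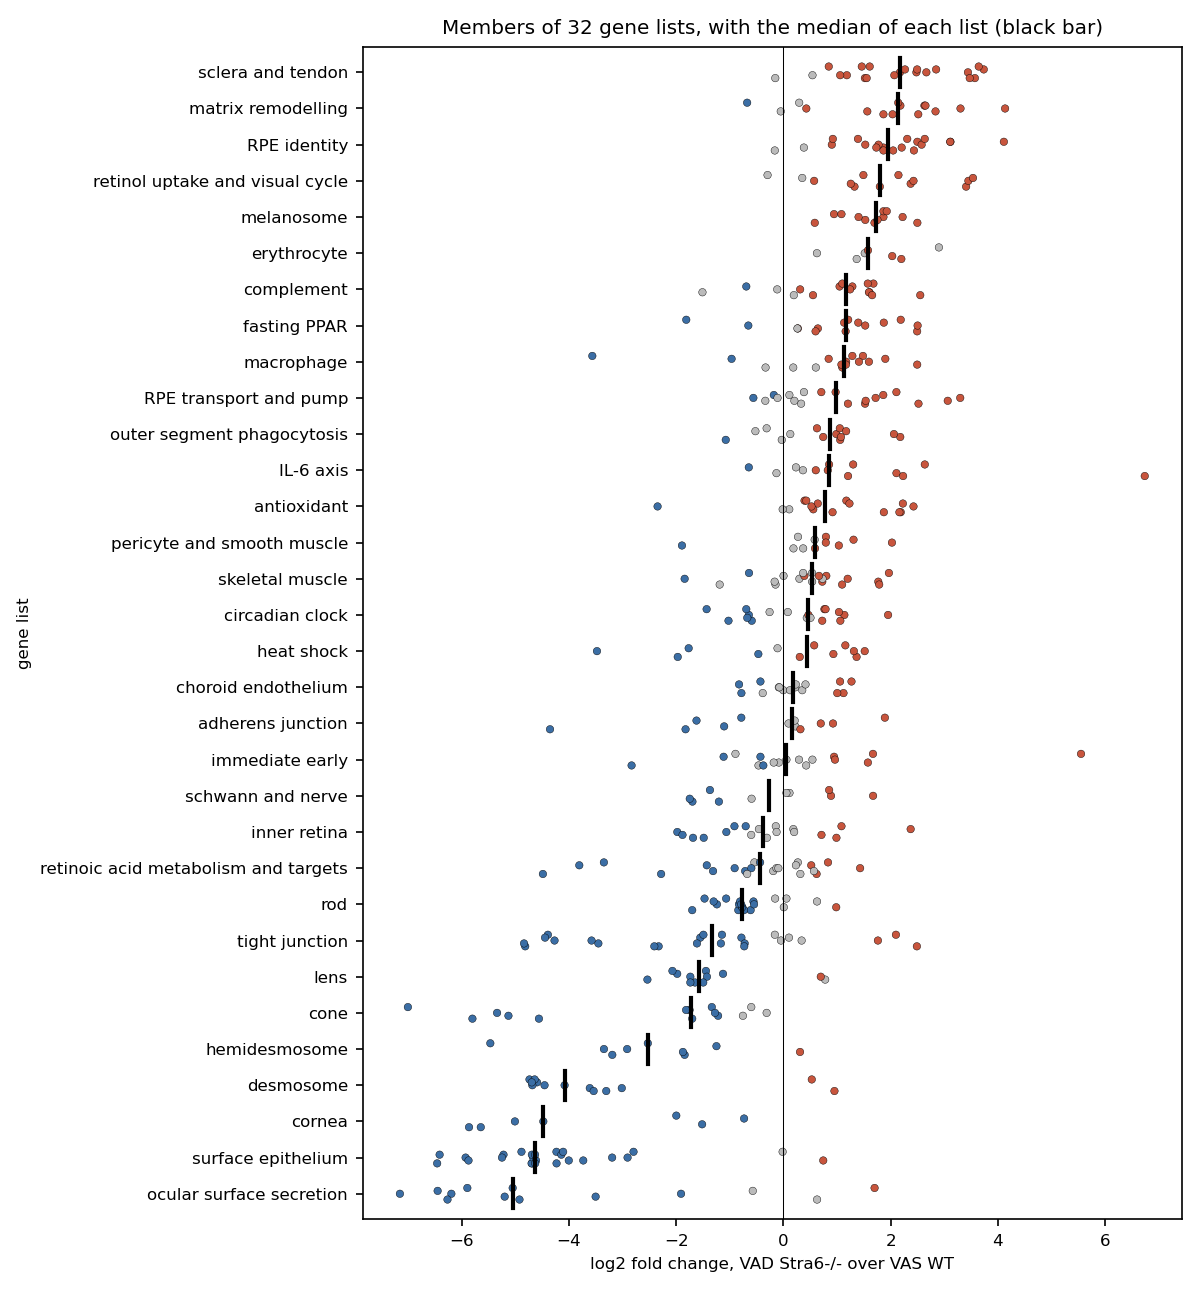
Log2 fold change (horizontal axis) of every measured member of 32 gene lists (rows), red where called higher, blue where called lower and grey where not called, with a black bar at the median of the list. Medians run from -5.05 for ocular surface secretion to 2.17 for sclera and tendon, and several lists, among them tight junction, cone, heat shock and immediate early, hold members far from their median.

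Connective tissue genes were higher. Of 21 sclera and tendon genes 19 were called higher and none lower (median 2.17), with a sum of 56274 to 59171 in VAS WT and 271176 to 282065 in the libraries labelled VAD Stra6-/-. The proteoglycan decorin (*Dcn*) was 16464, 15825, 17077, 15757 and 16258 against 117749, 118721, 114407, 112126 and 123370, 7.21-fold higher. Type I collagen (*Col1a1* and *Col1a2*) was 2.87-fold and 4.52-fold, thrombospondin 4 (*Thbs4*) 10.9-fold and *Angptl7* 11.1-fold higher. The sum of the list moved with the groups in all 10 libraries, and the part of attached scleral tissue in these values was not tested.

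Of 15 genes of matrix remodelling 12 were called higher and 1 lower (median 2.14). The inhibitor *Timp3*, which RPE deposits in Bruch's membrane, was 13943, 13560, 14856, 13868 and 15527 against 89726, 89437, 90889, 93249 and 81068, 6.19-fold higher, *Timp1* was 4.45-fold and the gelatinase *Mmp2* 4.1-fold higher. The crosslinking enzyme *Lox* was 6.28-fold higher. *Mmp9* was the one lower, with overlapping groups (73.2 to 124 against 45 to 79.5), and it did not pass without replicate 3 of VAS WT or of the other group (adjusted p = 0.0588 and 0.053, limma).

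Cytokine and stress genes mostly rose. Of 13 genes of the IL-6 axis 9 were called higher and 1 lower (median 0.85). The feedback inhibitor *Socs3* was 276, 183, 176, 163 and 232 in VAS WT and 1248, 1258, 1398, 1331 and 1094 in the libraries labelled VAD Stra6-/-, 6.15-fold higher. The related ligand *Lif* was 13.7 to 62.2 against 131 to 213 and the shared receptor *Il6st* 1.81-fold higher, and the one lower was the receptor *Lifr*. *Il6ra*, the binding chain for IL-6, overlapped between the groups.

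Of 16 antioxidant genes 13 were called higher and 1 lower (median 0.78). Heme oxygenase 1 (*Hmox1*) was 241, 186, 183, 196 and 193 against 1143, 1008, 1096, 1076 and 1048, 5.38-fold higher, sulfiredoxin (*Srxn1*) 4.56-fold and the metallothioneins *Mt1* and *Mt2* 4.7-fold and 4.47-fold. The lower one, the glutathione transferase *Gsta4*, was 5.09-fold lower. Of 15 genes induced by fasting and PPAR 12 were called higher and 2 lower (median 1.16), led by the lipase inhibitor *Angptl4* (5.65-fold) and the kinase *Pdk4* (5.59-fold).

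The heat shock list split within itself. Of 12 genes 7 were called higher and 4 lower (median 0.44), beside 25.3% and 27.4% of all genes. The inducible chaperone *Hspa1b* was 8843, 8151, 8130, 8967 and 7718 in VAS WT and 746, 778, 832, 686 and 706 in the libraries labelled VAD Stra6-/-, 11.2-fold lower, and its near-identical copy *Hspa1a* 3.93-fold, with the caution that reads can be split between the 2. *Hsp90aa1*, *Hspa8* and the endoplasmic reticulum chaperone *Hspa5* were 2.87-fold, 2.58-fold and 2.49-fold higher. Immediate early genes had 5 higher and 4 lower of 17, near the shares of all genes (25.3% and 27.4%), and their median (0.06) turned below 0 without any one of 3 libraries. *Fosl1* was 0 to 5.89 against 35.5 to 124 and *Atf3* 3-fold higher, *Klf4*, also an epithelial factor, was 7.1-fold lower, and *Jun* overlapped (1578 to 1827 against 1530 to 1682).

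Genes of macrophages and complement were higher. Of 16 macrophage genes 11 were called higher and 2 lower (median 1.13), with the surface marker *Adgre1* at 143, 146, 120, 128 and 126 against 697, 668, 784, 810 and 802, 5.68-fold higher, and the growth factor receptor *Csf1r* 2.8-fold. *Itgam*, usually a myeloid gene, went the other way (2041, 2194, 2046, 2074 and 1986 in VAS WT and 173, 170, 156, 178 and 194 in the libraries labelled VAD Stra6-/-), and *Cx3cr1* was 1.92-fold lower. Of 16 complement genes 12 were higher and 1 lower (median 1.17), among them the inhibitor *Serping1* (2.98-fold) and the activating protease *C2* (3.19-fold).

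Of 16 choroid endothelium genes 4 were called higher and 3 lower (median 0.17), shares near the 25.3% and 27.4% of all genes. The VEGF receptor *Kdr* was 2.44-fold higher. *Plvap*, the protein of fenestrae in the choriocapillaris, was 3083 to 3477 against 3675 to 4097 and did not pass. Of 11 pericyte and smooth muscle genes 6 were higher and 1 lower (median 0.59). The regulator *Rgs5* was 4.11-fold higher and the receptor *Notch3* 3.71-fold lower.

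The combined difference was set against the sum of the 2 single ones, VAS Stra6-/- against VAS WT and VAD WT against VAS WT, in the same fit. These share the 5 VAS WT libraries, and the sex transcripts move with them. *Xist* was 15320 to 18052 in all VAS Stra6-/- libraries, and in VAD WT 10912 and 11767 in replicates 2 and 4 but 174 to 234 in the other 3. The mean log2 value of the 5 listed sex-linked genes, *Xist* and Y-linked ones, was 2.78 to 3.28 in VAS Stra6-/-. It was 7.15 and 7.19 in replicates 2 and 4 of VAD WT, with less *Xist*, so these 2 held *Xist* and Y-linked transcripts together. The part of sex was not tested. Replicates 2 and 4 also stand apart in the gene lists. The 20 RPE identity genes summed to 105180 and 104340 in these 2 and to 48514, 50931 and 51156 in replicates 1, 3 and 5. The surface epithelium sums were 314000 and 310870 against 743540 to 756250, and the sclera and tendon sums 204270 and 208210 against 58838 to 62121. The values for diet alone therefore average unlike libraries, and are given with and without these 2. The combined difference lay above the sum for 3663 genes (19.5%) and below it for 4656 (24.8%) at an adjusted p under 0.05 (limma), or 4831 and 5455 without the 2 libraries. For *Rpe65* the 2 single log2 fold changes were 0.48 for genotype and -1.0 for diet, and the combined one exceeded their sum by 3.93 (standard error 0.34, adjusted p = 6.17e-09, limma), with -1.61 for diet and an excess of 4.53 without the 2 libraries. The single changes of *Krt5* were 0.47 and 0.15, and its combined change minus their sum was -5.31, with 0.74 for diet and a difference of -5.9 without the 2 libraries.

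Side by side, the median of the 20 RPE identity genes was 1.96 in the combined comparison, 0.03 for genotype alone and -0.79 for diet alone (-1.11 without replicates 2 and 4 of VAD WT). For the surface epithelium genes the 3 medians were -4.63, 0.47 and -0.11 (0.04 without the 2 libraries), and for the sclera and tendon genes 2.17, -0.02 and 0.41 (-0.04 without them). The cone genes had medians of -1.73, -1.45 and 0.02 (-0.23 without them), and the IL-6 axis 0.85, 0.71 and -0.05 (-0.25 without them). The mean of *Arr3* was 446 in VAS WT, 596 in VAD WT, 80.8 in VAS Stra6-/- and 4.39 in the libraries labelled VAD Stra6-/-. *Il6* had means of 2.5, 1.61, 11.2 and 181 in the same order.

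**Figure D5:**
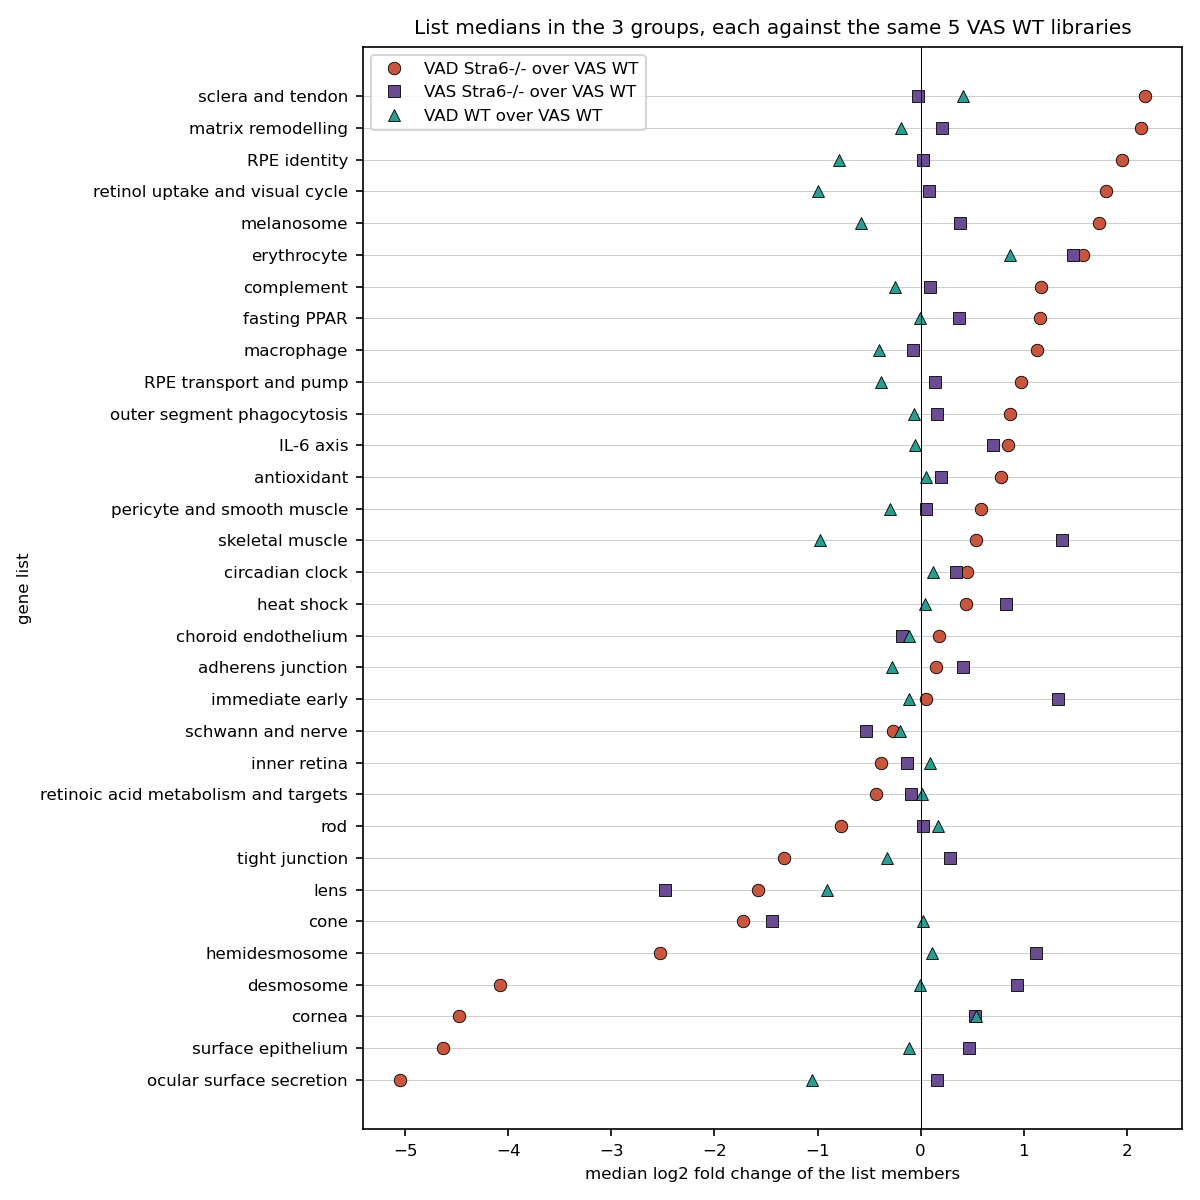
Median log2 fold change (horizontal axis) of the members of 32 gene lists (rows) in the libraries labelled VAD Stra6-/- (circles), in VAS Stra6-/- (squares) and in VAD WT (triangles), each against the same 5 VAS WT libraries. The triangles pool 5 libraries of which replicates 2 and 4 stand apart. The circles lie far from both other symbols in the RPE, sclera and surface epithelium lists, and the cone and lens lists have squares well below 0.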

How the data were processed

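Paired-end mRNA libraries were mapped to GRCm38 and quantified by the authors. The submitters' processing notes name STAR (v2.5.3a), RSEM (v1.2.30) and DESeq2 (v1.32.0), and whether the counting used strand is not given in the sources used here. The deposited values are a signal, gene counts that the authors divided by 1 size factor per library, so whole reads were recovered from the steps of the low values for 19 libraries, all but replicate 1 of VAD Stra6-/- (100% of positive values lay within 0.01 of a whole read). The main test was limma (v3.58.1, R v4.3.3) on log2(value + 1) with group means and a mean trend over all 20 libraries. This scale understates the change of low genes. Genes needed at least 5 reads over 20 libraries. P-values were adjusted by Benjamini-Hochberg over 18807 genes, and called means an adjusted p under 0.05. Folds are ratios of group means. Libraries are treated as separate animals, as labelled, and p-values measure the spread between these samples only. The libraries labelled VAD Stra6-/- held *Xist* and *Ddx3y* together. Replicates 2 and 4 of VAD WT also held *Xist* with Y-linked transcripts. Whether each of these libraries was 1 mouse was not tested. If they share animals, the p-values do not measure the spread between mice.

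Named genes are *Stra6*, members of 33 lists (1 listed gene, *Muc16*, had no row) and, each way, the 12 largest log2 fold changes among called genes of at least 10 CPM with no overlap between groups. Some members counted in the lists are not reported here by name. Members and lists were chosen with earlier results of these data known. Gene positions are from GENCODE M21, and promoters from RefSeq, by symbol. Ratios to list means were compared by exact permutation (5 against 5, smallest two-sided p 0.00794). Alternatives were pseudocounts of 0.5 and 4, TMM scaling, 2 read filters, the 10 libraries alone, leaving out libraries, a replicate block, edgeR (v4.0.16) and DESeq2 (v1.42.0) on the recovered reads, and the median as reference. The list medians for diet without replicates 2 and 4 of VAD WT were added after seeing the data. The limma code was tested on simulated data.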

Additional observations from a re-analysis of the deposited data

Results flagged for a closer look

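In 31 of 390 groups of 5 values tested, 1 library lay apart from the other 4 by Dixon's criterion, and chance flags about 1 in 20 groups. Replicate 5 of the libraries labelled VAD Stra6-/- was apart for 10 genes, at normalized values of 3236 for *Aldh1a1*, 2813 for *Cdh3*, 83850 for *Dct*, 32582 for *Hsp90aa1*, 55474 for *Hspa8*, 1599 for *Lox*, 18109 for *Lrat*, 4743 for *Pkp4*, 1166 for *Rab38* and 348847 for *Trf*. Replicate 4 of the same group was apart for *Alox12e* (45.6) and for the ratio of *Cdh1* to the surface epithelium genes (2.135 on the log2 scale), replicate 3 for *Cnga3* (3.07), *Col1a2* (33202) and *Rarb* (576), and replicate 1 for *Cx3cr1* (65.5). In VAS WT, replicate 1 was apart for *Fosl1* (5.89), *Hmox1* (241), *Srxn1* (806) and *Timp1* (88.4), replicate 2 for *Aldh1a3* (1539), replicate 3 for *Itgb8* (48.6), replicate 4 for *Angptl7* (617), *Aqp5* (32164), *Cryaa* (3217), *Esrp1* (2621), *Npas2* (242) and *Rdh5* (8958), and replicate 5 for *Atf3* (235), *Il6* (12.5) and *Rarb* (430).

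The difference between the groups labelled Stra6-/- and WT was not the same on the 2 diets, by the interaction term in limma, for 3663 genes in the upward and 4656 in the downward direction. The normalized level of *Stra6* in the libraries labelled VAD Stra6-/- goes against the label, whereas its ratio to the 20 RPE genes was lower than in VAS WT. The sex transcripts and the shares of RPE and surface epithelium genes also move with the groups, and the part of each was not tested. Of *Stra6* and the 24 genes with the largest changes, 23 differed, against 19.5% of all genes above and 24.8% below the sum. The 24 were picked by the combined log2 fold change, which is part of this difference, so their count is not evidence of its own. The combined log2 fold change minus the sum of the single ones was 3.27 for *Stra6*, 4.47 for *Rdh10*, 4.85 for *Itgb8*, 4.53 for *Il6*, 3.32 for *Ptx3*, 3.0 for *Mmp3*, 3.18 for *Chad*, 2.46 for *Comp*, 3.08 for *Tnmd* and 6.03 for *Pcdhac2*. It was -7.79 for *Xist*, -4.98 for *Arr3*, -7.47 for *Lypd2*, -7.86 for *Slurp1*, -2.16 for *Ltf*, -2.98 for *Olfm4*, -2.65 for *Clca3b*, -7.2 for *Syt8*, -6.05 for *Plekhs1*, -2.94 for *Wfdc18*, -5.79 for *Clca4a*, -7.01 for *Adtrp* and -3.96 for *Alox12e*.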

How the results depend on the processing

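Across the alternatives other than the fold threshold, the counts of genes called stayed within 1.5 times those reported. Leaving out each library in turn gave 4505 to 4583 genes higher and 4928 to 4962 lower, 421 to 444 and 1184 to 1254 beyond a log2 fold change of 2, 3484 to 3541 above and 4466 to 4545 below the sum of the single effects, 19 lists with more members called higher than lower and 13 to 14 with more called lower, and -0.298 to -0.229 for *Stra6*. With a log2 fold change beyond 1 in place of 2, 1685 genes were higher and 2707 lower. *Stra6* (-0.261) passed with the 10 libraries alone (adjusted p = 0.00267) and without replicates 2 and 4 of VAD WT (adjusted p = 0.000699). In the fit of the 10 libraries *Cldn19*, *Ddx3y*, *Plvap*, *Rbp3*, *Rom1* and *Uty* passed too. On the recovered reads edgeR called 4386 genes higher and 5080 lower, and DESeq2 4694 and 5087, with *Pcdhac2* (adjusted p = 0.0751) and *Kdm5d* not passing in DESeq2. The median of the immediate early genes turned to -0.005, -0.009 and -0.018 without replicate 5 of VAD Stra6-/-, replicate 2 or replicate 4 of VAS WT, and to 0.154 without replicate 1 of VAS WT. Against the median of the surface epithelium genes the ratio differences of *Pkp1*, *Dsc2* and *Dsc3* turned to 0.215, 0.226 and 0.269 (adjusted p = 0.137, 0.159 and 0.0303, exact permutation). The cause was not tested. Leaving out libraries, the ratio of *Cldn3* ran from -0.277 to 0.018, and against the median it was 0.516 (adjusted p = 0.0833, exact permutation). TMM scaling moved the median of all genes to -0.07.

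Replicate numbers are shared by the groups, but same-numbered libraries did not deviate together (correlations -0.03 to 0.015). With a replicate block 4730 genes were higher and 5100 lower, and no named gene changed its call. Limits: genotype, diet, colony, the sex transcripts and the share of surface epithelium genes move together. Whether each library was 1 mouse was not tested. Replicate 1 of VAD Stra6-/- was not in the count tests, and values of a few reads, such as those of *Cnga3*, set no fold.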

Other observations

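Of 18 circadian clock genes, whose protein products drive daily rhythms of transcription, 8 were called higher and 6 lower (median 0.45, limma). Over all genes the shares were 25.3% and 27.4%. The repressors *Cry1* and *Nfil3* were 2.2-fold and 3.87-fold higher, and *Npas2* and *Arntl*, of the activating arm, were 2.68-fold and 1.48-fold lower in the libraries labelled VAD Stra6-/-. *Dbp*, an output gene with a strong daily rhythm in most tissues, was 2782 to 3474 in VAS WT and 4921 to 5692 in the other group. The time of day at which tissue was taken is not given in the sources used here.

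Lens crystallins were lower. Of 12 lens genes 10 were called lower and 1 higher (median -1.57), with *Cryaa* 3.13-fold and *Crygs* 4.17-fold lower, and *Bfsp2* was the one higher. Of 20 skeletal muscle genes 9 were higher and 2 lower (median 0.54, beside 25.3% and 27.4% of all genes), among them the fast myosins *Myh1* (3.91-fold) and *Myh2* (3.41-fold). Of 10 Schwann cell and nerve genes 3 were higher and 4 lower (median -0.27), close to the shares of all genes (25.3% and 27.4%), with the myelin gene *Mbp* 2.59-fold lower and *Pmp22* 3.19-fold higher. Of 7 erythrocyte genes 3 were higher and none lower (median 1.58), beside 25.3% and 27.4% of all genes. *Alas2*, the first enzyme of heme synthesis in red cells, was 70.5 to 160 against 257 to 383. Its call was lost without replicate 5 of VAS WT (adjusted p = 0.0527, limma). Of 5 sex-linked genes *Xist* was higher, *Kdm5d* and *Eif2s3y* were lower (3.02-fold and 4.38-fold), and *Ddx3y* and *Uty* did not pass. The call of *Kdm5d* was lost without any one of 8 libraries (replicate 2 or 4 of VAD Stra6-/- excepted, adjusted p 0.0504 to 0.074) and in DESeq2 (adjusted p = 0.0549).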
